A study of Homo sapiens with 6 samples.

Results

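Glycolysis turns glucose into pyruvate and then lactate, and fibroblasts in culture use it heavily. The 41 genes described here cover that pathway and the hypoxia response that controls much of it. They fall into 24 genes of glucose and lactate handling, 7 genes of the hypoxia-inducible factors (HIF) and their regulators, and 10 other genes that HIF is known to induce. They were chosen by symbol, each matched 1 Ensembl identifier, and they are 41 of the 57659 genes in the deposited counts.

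The RNA came from IMR90 cells, a line of primary human fetal lung fibroblasts, grown in medium with fetal bovine serum. In 3 libraries the cells expressed a short hairpin RNA against macroH2A1 (macroH2A1 KD), and in 3 they expressed a control hairpin against luciferase, which has no target in human cells (Luc KD). MacroH2A1 is a histone H2A variant with a large globular domain. The series calls the libraries biological replicates; the labels describe 1 hairpin target per group and do not state the hairpin sequences, the time after hairpin delivery or the oxygen level.

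HIF is a pair of proteins, an oxygen-sensitive alpha subunit, encoded by HIF1A or EPAS1, and the stable partner ARNT. When oxygen is present, prolyl hydroxylases of the EGLN family mark the alpha subunit, the VHL protein binds the mark, and the subunit is degraded. HIF activity is therefore set mainly at the protein level, which RNA counts do not measure. At low oxygen HIF binds the core ACGTG or GCGTG near its target genes, among them most of the glycolytic enzymes, the glucose transporters and PDK1.

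The targeted gene was checked first. MACROH2A1 had 197, 201 and 149 counts in the macroH2A1 KD libraries and 582, 385 and 321 in the Luc KD libraries (edgeR log2 fold change -1.11, SE 0.08, adjusted p = 0.000917). Depth was 3741087 to 5322851 gene counts per library in macroH2A1 KD and 3744716 to 6421605 in Luc KD. Of 14 fibroblast markers 13 had enough counts to test. Of these 7 (53.8%) were higher in macroH2A1 KD, where 3.90% of all genes tested were higher. The list summed to 63335 to 82505 counts per macroH2A1 KD library and 49866 to 71920 per Luc KD library. All marker sums given here are raw counts, not scaled for depth. None of 10 epithelial and 8 blood markers reached the count filter, with 10 and 8 counts in all in macroH2A1 KD against 14 and 13 in Luc KD. Of 8 endothelial markers, KDR and TEK were tested and higher, and the list summed to 512 to 712 counts per macroH2A1 KD library and 230 to 410 per Luc KD library. TEK alone held 1770 of the 1892 counts of that list in macroH2A1 KD and 904 of the 926 in Luc KD. VWF had 8 counts in macroH2A1 KD and 17 in Luc KD. CDH5, CLDN5 and ERG had 1 count each in macroH2A1 KD and 0 in Luc KD. PECAM1 and EMCN of that list were at 0 in all 6. The part of these marker differences in the values below was not tested, and in RNA from whole cultures fewer cells of a kind and less RNA per cell cannot be told apart.

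Reads with more than 1 possible origin were not counted, and this touches several of these genes, since many glycolytic enzymes have processed pseudogenes. Such reads made up 64.4% to 66.6% of the listed reads in macroH2A1 KD and 67.6% to 68.8% in Luc KD, ranges that did not overlap. Reads outside annotated genes also separated the groups, the other way, at 10.6% to 11.3% of listed reads in macroH2A1 KD and 8.34% to 9.43% in Luc KD. The part of these differences in the results was not tested.

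Of the 41 genes, 37 had enough counts to test. In macroH2A1 KD 6 fell, SLC2A3, SLC16A1, HK2, LDHA, PDK1 and BNIP3, and 3 rose, EPAS1, DDIT4 and MXI1 (edgeR quasi-likelihood F test, p adjusted by Benjamini-Hochberg over the 13445 genes tested, threshold 0.05). The 6 that fell are 16.2% of the genes tested, where 4.31% of all genes tested were lower. The 3 that rose are 8.11%, where 3.90% of all genes tested were higher, and 8.21% were called in either direction. Shares of all genes tested are not matched to the abundance of the 37 genes. The median log2 fold change was -0.18 over the 37 genes and 0.0067 over all genes tested. Group values did not overlap, with macroH2A1 KD lower, for 16 of the 37, against 15.9% of all genes tested; they did not overlap with macroH2A1 KD higher for 5, against 14.5%. In either direction 30.4% of all genes tested did not overlap. Of the 37 log2 fold changes 26 were negative, against 49.2% over all genes tested.

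By role, of the 23 tested genes of glucose and lactate handling, 5 fell and none rose. That is 21.7% lower, where 4.31% of all genes tested were lower. Of these 23, 19 had a negative log2 fold change, against 49.2% of all genes tested, and the median was -0.22. Of the 6 tested HIF subunits and regulators 1 rose (16.7%, where 3.90% of all genes tested were higher) and none fell. Of these 6, 2 had a negative and 4 a positive log2 fold change, with a median of 0.09. Of the 8 other targets tested 1 fell and 2 rose (12.5% and 25%). Their log2 fold changes ran from -0.78 to 0.57 with a median of -0.06. The difference between the roles was not tested.

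**Figure D1:**
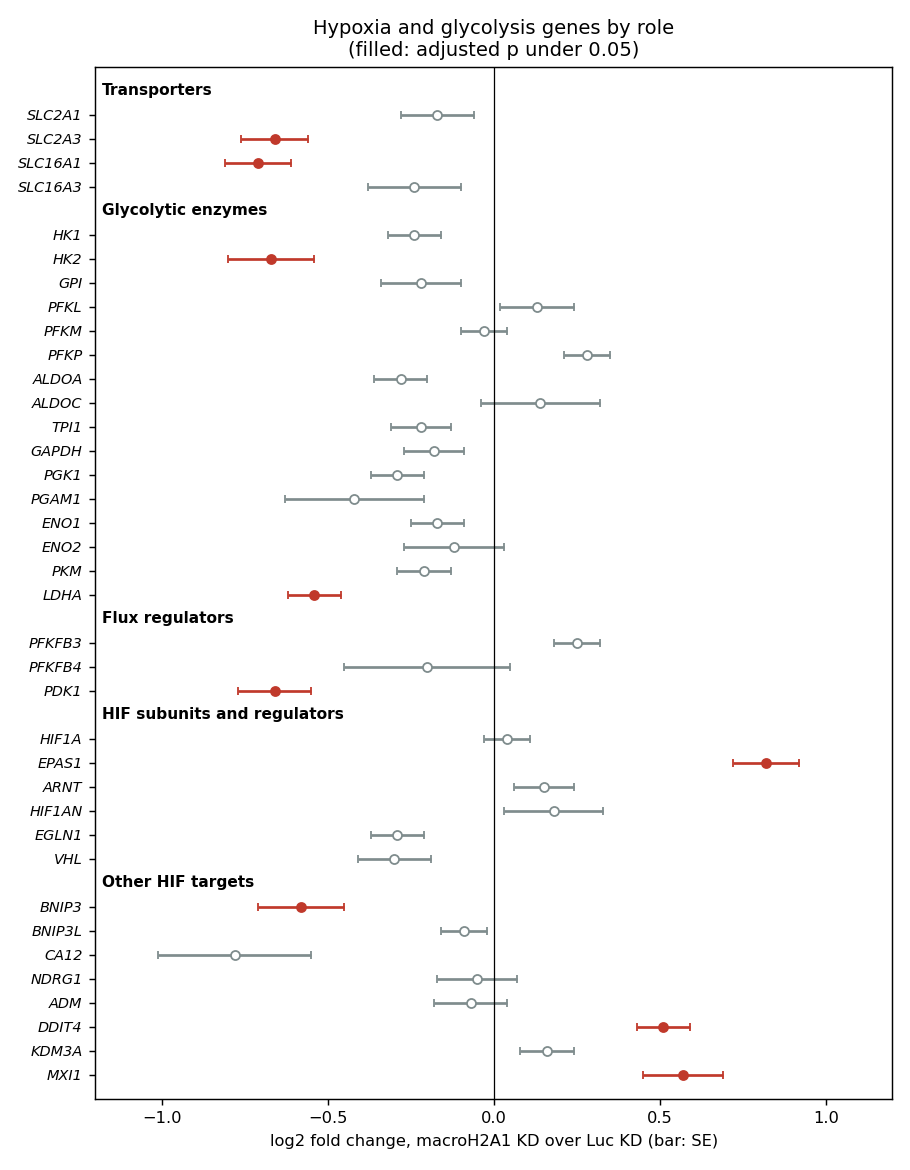
Log2 fold change, macroH2A1 KD over Luc KD, for the 37 tested genes by role, with bars for the SE and filled points for an adjusted p under 0.05. The 6 filled points left of 0 lie between -0.71 and -0.54, and the 3 filled points right of 0 between 0.51 and 0.82.

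Promoter windows of 5 of the called genes are shown for the HIF core they hold. RefSeq (GRCh38.p14) windows of 250 bases before to 50 after a start were found for 36 of the 41 genes. They were scanned for the core ACGTG or GCGTG on both strands, which read as CACGT or CACGC on the other strand; capitals mark every match, and CACGTG holds a match on each strand. Where a gene had several starts, the window with the most matches is shown. LDHA, HK2 and BNIP3 fell, and EPAS1 and DDIT4 rose.
LDHA, chr11:18394313-18394612, + strand: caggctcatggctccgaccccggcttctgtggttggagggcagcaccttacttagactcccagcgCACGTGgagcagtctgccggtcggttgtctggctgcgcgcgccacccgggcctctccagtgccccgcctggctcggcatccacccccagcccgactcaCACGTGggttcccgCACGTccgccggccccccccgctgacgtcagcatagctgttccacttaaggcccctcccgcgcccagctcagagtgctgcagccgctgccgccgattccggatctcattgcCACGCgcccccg
HK2, chr2:74834920-74835219, + strand: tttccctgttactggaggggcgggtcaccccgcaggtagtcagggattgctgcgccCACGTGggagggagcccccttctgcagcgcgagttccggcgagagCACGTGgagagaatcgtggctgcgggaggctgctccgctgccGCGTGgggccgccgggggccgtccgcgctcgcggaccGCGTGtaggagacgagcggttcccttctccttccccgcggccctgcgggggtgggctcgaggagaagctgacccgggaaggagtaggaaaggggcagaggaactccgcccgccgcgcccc
BNIP3, chr10:131981874-131982173, - strand: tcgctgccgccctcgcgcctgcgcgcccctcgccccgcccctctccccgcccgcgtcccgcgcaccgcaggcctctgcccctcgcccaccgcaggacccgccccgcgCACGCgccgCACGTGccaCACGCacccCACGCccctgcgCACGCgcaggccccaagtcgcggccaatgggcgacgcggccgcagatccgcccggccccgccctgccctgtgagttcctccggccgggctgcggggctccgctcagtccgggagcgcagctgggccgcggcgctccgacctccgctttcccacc
EPAS1, chr2:46297157-46297456, + strand: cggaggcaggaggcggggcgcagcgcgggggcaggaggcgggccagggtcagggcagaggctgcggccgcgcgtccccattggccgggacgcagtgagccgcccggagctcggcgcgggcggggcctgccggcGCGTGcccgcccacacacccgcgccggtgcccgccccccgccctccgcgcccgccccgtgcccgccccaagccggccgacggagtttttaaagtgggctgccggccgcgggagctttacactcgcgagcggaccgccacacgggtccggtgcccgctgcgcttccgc
DDIT4, chr10:72273674-72273973, + strand: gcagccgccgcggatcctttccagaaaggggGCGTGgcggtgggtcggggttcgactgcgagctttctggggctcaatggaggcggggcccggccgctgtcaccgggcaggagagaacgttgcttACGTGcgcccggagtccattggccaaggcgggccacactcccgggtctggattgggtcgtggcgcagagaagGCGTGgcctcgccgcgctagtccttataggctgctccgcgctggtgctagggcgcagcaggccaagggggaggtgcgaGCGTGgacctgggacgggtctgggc

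The LDHA, HK2 and BNIP3 windows shown held 6 matches each, the DDIT4 window 4 and the EPAS1 window 1. The other LDHA window held 1 match and the other HK2 window 3. Not shown were PDK1, which fell and had windows with 0 and 2 matches, and MXI1, which rose and had 0, 2 and 2. The genes shown are therefore a selection. In all, 44 of the 66 windows of these genes held a match (66.7%), against 48.4% of all 35116 windows. Genes in both directions had matches: 6 of 7 windows of genes that fell, 4 of 5 of genes that rose and 31 of 50 of genes not called. Several windows can belong to 1 gene. Counted by gene, a match in any window was found for all 4 genes that fell and had a window (SLC2A3 and SLC16A1 had none). The same held for all 3 genes that rose and for 22 of the 25 uncalled genes with a window. The hexamer CACGTG, which MYC family proteins also bind, was in 3 of the 7 windows of genes that fell, in none of the 5 of genes that rose, in 4 of the 50 of genes that were not called and in 7.26% of all windows. A match is a stretch of letters, and binding was not measured.

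Of the 2 glucose and 2 lactate transporters, 1 of each fell. SLC2A3 encodes GLUT3, a high-affinity glucose transporter. It had 44.5, 39.6 and 36.4 counts per 1000000 (CPM) in macroH2A1 KD and 67.1, 62.9 and 60.3 CPM in Luc KD. The groups did not overlap, and it was 1.58-fold lower (log2 fold change -0.66, SE 0.10, edgeR adjusted p = 0.0107). SLC16A1 encodes MCT1, which carries lactate and pyruvate across the membrane. It had 54.0, 60.7 and 47.7 CPM in macroH2A1 KD and 86.4, 90.1 and 89.6 CPM in Luc KD. That is 1.64-fold lower (log2 fold change -0.71, SE 0.10, edgeR adjusted p = 0.00895), with every macroH2A1 KD library below every Luc KD library.

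The other transporter of each pair did not pass. SLC2A1, which encodes GLUT1, the main glucose transporter of cultured cells, had 96.3, 113 and 98.6 CPM in macroH2A1 KD and 102, 118 and 128 CPM in Luc KD. The groups overlapped (log2 fold change -0.17, SE 0.11, edgeR adjusted p = 0.387). SLC16A3 encodes MCT4, the lactate exporter typical of glycolytic cells, and had overlapping values of 49.8 to 58.5 CPM in macroH2A1 KD and 52.8 to 76.6 CPM in Luc KD (log2 fold change -0.24, SE 0.14, edgeR adjusted p = 0.356). Summed over the 4 transporters, the level was 253, 263 and 235 CPM in macroH2A1 KD and 308, 333 and 354 CPM in Luc KD.

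Reads of SLC2A3 can also fall on SLC2A14, a close copy, and on pseudogenes. These 4 like-named genes held 37 counts in macroH2A1 KD and 50 in Luc KD, against 543 and 927 for SLC2A3 itself. SLC16A1 overlaps the antisense gene SLC16A1-AS1, which held 27 counts in macroH2A1 KD and 52 in Luc KD. The strand setting of the counting is not given in the sources used here.

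Hexokinase traps glucose in the cell by phosphorylating it, and HK2 is its inducible form. HK2 had 20.4, 28.7 and 26.0 CPM in macroH2A1 KD and 39.7, 38.4 and 41.5 CPM in Luc KD. The groups did not overlap, and HK2 was 1.59-fold lower (log2 fold change -0.67, SE 0.13, edgeR adjusted p = 0.0272). The highest macroH2A1 KD library had 29.3 HK2 counts per 1000000 gene counts before scaling (exact 95% binomial interval 24.5 to 34.7) and the lowest Luc KD library 38.0 (32.5 to 44.2), so these 2 intervals overlap; they cover counting error only. HK2 was not called without macroH2A1 KD replicate 3 (adjusted p = 0.0803) or without Luc KD replicate 1, 2 or 3 (0.0921, 0.0794 and 0.0835), with log2 fold changes from -0.70 to -0.65.

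HK1, the constitutive form, had 56.3 to 63.5 CPM in macroH2A1 KD and 67.5 to 73.5 CPM in Luc KD. Its groups did not overlap either, but it did not pass (log2 fold change -0.24, SE 0.08, edgeR adjusted p = 0.128). Per kb of exon, HK2 made up 25%, 34.2% and 32.4% of the 2 hexokinases in macroH2A1 KD and 37.9%, 37.1% and 37% in Luc KD. The share was lower in each macroH2A1 KD library, with replicate 1 farthest from the Luc KD values.

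None of the 13 enzymes between hexokinase and lactate dehydrogenase passed. GPI, which makes fructose 6-phosphate, had overlapping values of 46.9 to 58.9 CPM in macroH2A1 KD and 57.2 to 70 CPM in Luc KD (edgeR adjusted p = 0.318). Phosphofructokinase, the main control point of the pathway, has 3 isoforms, and none passed. PFKP, the platelet form, had 229, 234 and 237 CPM in macroH2A1 KD and 182, 199.8 and 194 CPM in Luc KD, the only glycolytic enzyme whose macroH2A1 KD values all lay above the Luc KD values (log2 fold change 0.28, SE 0.07, edgeR adjusted p = 0.0532). It passed under upper quartile scaling, with limma-voom and with only the genes of the authors' table tested. PFKL and PFKM, the liver and muscle forms, had log2 fold changes of 0.13 and -0.03 with overlapping groups. Per kb, PFKP made up 77.2% ± 1.77 of the 3 isoforms in macroH2A1 KD and 74.2% ± 0.695 in Luc KD (SD, n = 3 each), and PFKM 11.2% ± 0.262 and 13.3% ± 0.0426.

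From aldolase to pyruvate kinase most enzymes had lower values in macroH2A1 KD, by small amounts, and none passed. With limma-voom in place of edgeR, ALDOA and PKM passed as lower. With only the genes of the authors' table tested, ALDOA, GAPDH, PGK1, ENO1 and PKM passed as lower. ALDOA, the main aldolase, averaged 218 ± 13.4 CPM in macroH2A1 KD and 265 ± 9.85 CPM in Luc KD (SD, n = 3 each, edgeR adjusted p = 0.0715). PGK1, which makes the first ATP of the pathway, had 219, 215 and 216 CPM in macroH2A1 KD and 249, 253 and 294 CPM in Luc KD, without overlap (log2 fold change -0.29, SE 0.08, edgeR adjusted p = 0.084). GAPDH had 1207, 1379 and 1253 CPM in macroH2A1 KD and 1417, 1480 and 1457 CPM in Luc KD (log2 fold change -0.18, SE 0.09, edgeR adjusted p = 0.264). This gene is often used as a loading control, and each macroH2A1 KD library was below each Luc KD library.

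PKM, pyruvate kinase, had 949.8, 949 and 886 CPM in macroH2A1 KD and 1049.9, 1086 and 1081 CPM in Luc KD (log2 fold change -0.21, SE 0.08, edgeR adjusted p = 0.153). TPI1 and ENO1, which interconvert triose phosphates and make phosphoenolpyruvate, also did not overlap and did not pass, at log2 fold changes of -0.22 and -0.17. PGAM1, the mutase before enolase, had overlapping groups at -0.42 (SE 0.21, edgeR adjusted p = 0.289). ALDOC and ENO2, the brain-type forms, were low, at 8.12 ± 0.641 and 14.4 ± 2.05 CPM in macroH2A1 KD and 7.41 ± 0.977 and 15.6 ± 1.81 CPM in Luc KD (SD, n = 3 each).

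Counts of these enzymes are uncertain where close copies exist. The 64 genes named as GAPDH pseudogenes held 3210 counts in macroH2A1 KD and 3062 in Luc KD, which is 15.8% and 12.8% of the counts of gene and copies together. The copies of PGAM1, among them the retrogene PGAM4, held 34.8% of the joint counts in macroH2A1 KD and 19.1% in Luc KD, so PGAM1 is the least certain of the set. For TPI1 the copies held 16.3% in macroH2A1 KD and 14.6% in Luc KD, and for PKM 5.39% and 4.29%. PFKM shares exon bases with SENP1 on the opposite strand.

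LDHA, the lactate dehydrogenase subunit that favours lactate formation, fell. It had 337, 334 and 366 CPM in macroH2A1 KD and 493, 481 and 528 CPM in Luc KD. The groups did not overlap, and LDHA was 1.45-fold lower (log2 fold change -0.54, SE 0.08, edgeR adjusted p = 0.0108). Its call held without each library in turn, with adjusted p from 0.0331 to 0.0499. Its 6 like-named copies held 372 counts in macroH2A1 KD and 449 in Luc KD, against 4604 and 7219 for LDHA.

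**Figure D2:**
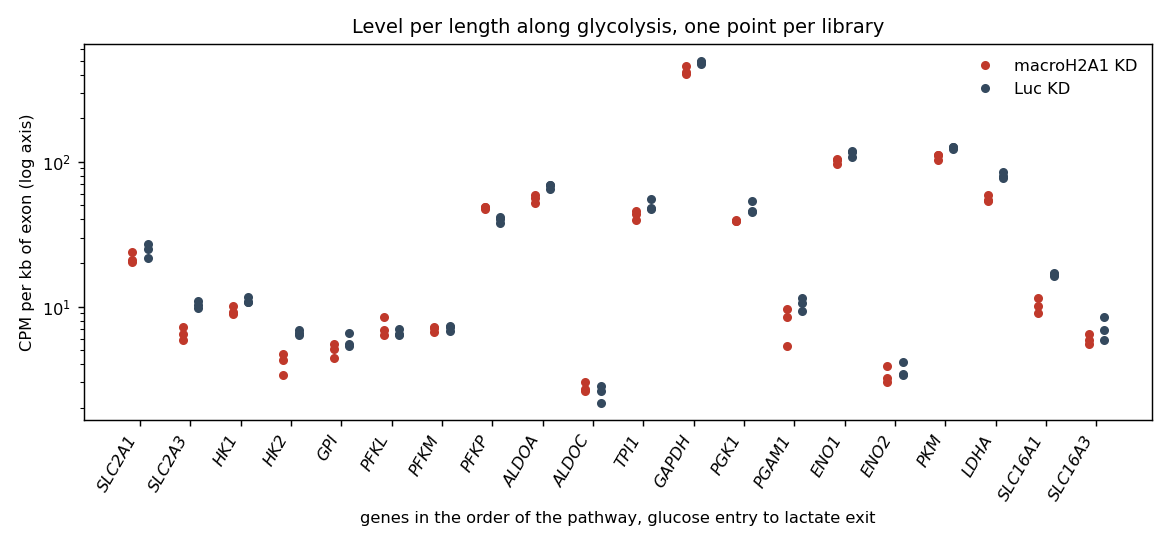
Level per length, in CPM per kb of exon on a log axis, for transporters and enzymes in pathway order, with 1 point per library, macroH2A1 KD left of Luc KD. GAPDH is the highest, at a mean of 429 CPM per kb in macroH2A1 KD and 487 in Luc KD, and LDHA at 55.6 and 80.6 shows separated groups.

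Per length, the order of the enzymes differed between the groups around LDHA. In both groups GAPDH came first, PKM second at 108 ± 4.30 CPM per kb in macroH2A1 KD and 125 ± 2.30 in Luc KD, and ENO1 was the third at 101 ± 4.26 and 114 ± 5.90 (SD, n = 3 each). In macroH2A1 KD, ALDOA at 55.7 ± 3.43 and LDHA at 55.6 ± 2.82 CPM per kb did not differ beyond their spread. In Luc KD, LDHA stood at 80.6 ± 3.92 CPM per kb, above ALDOA at 67.8 ± 2.52. PFKP was above TPI1 and PGK1 in macroH2A1 KD, at 48.2 ± 0.791 CPM per kb against 43.2 ± 3.12 and 39.3 ± 0.318. In Luc KD it was below both, at 39.7 ± 1.84 against 50.2 ± 4.31 and 48.2 ± 4.44. The lowest enzymes per length were ALDOC and ENO2 in both groups. The length is the union of all annotated exons, 5512 bases for PGK1 and 2700 for TPI1, not that of the transcripts present. The order between different enzymes depends on this length, and also on reads lost to close copies. Summed over the 16 enzymes, the level was 4094, 4288 and 4123 CPM in macroH2A1 KD and 4668, 4865 and 4919 CPM in Luc KD, with no overlap. GAPDH, PKM and ENO1 make up most of that sum.

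Pyruvate dehydrogenase kinases inhibit pyruvate dehydrogenase, the mitochondrial enzyme complex that turns pyruvate into acetyl-CoA. PDK1, the HIF-induced form, had 35.4, 30.7 and 39.9 CPM in macroH2A1 KD and 52.0, 55.8 and 59.5 CPM in Luc KD. It was 1.58-fold lower without overlap (log2 fold change -0.66, SE 0.11, edgeR adjusted p = 0.0174). Without macroH2A1 KD replicate 1, Luc KD replicate 2 or Luc KD replicate 3 it was not called (adjusted p = 0.0628, 0.065 and 0.0579), at log2 fold changes of -0.65, -0.66 and -0.61. PDK1 shares exon bases with PDK1-AS1 on the other strand, which held 14 counts in macroH2A1 KD and 22 in Luc KD. PDK3 was too low to test, with 4, 7 and 10 counts in macroH2A1 KD and 14, 2 and 10 in Luc KD.

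PFKFB3 and PFKFB4 make fructose 2,6-bisphosphate, which stimulates phosphofructokinase. PFKFB3 had 37.8, 37.6 and 36.7 CPM in macroH2A1 KD and 31.6, 29.7 and 32.8 CPM in Luc KD. These values did not overlap but did not pass (log2 fold change 0.25, SE 0.07, edgeR adjusted p = 0.0834). PFKFB4 was low and overlapping, at 6.85 ± 2.05 CPM in macroH2A1 KD and 7.82 ± 0.797 CPM in Luc KD (SD, n = 3 each).

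Of the HIF subunits, EPAS1 rose and HIF1A did not pass. EPAS1 encodes HIF-2 alpha and had 258, 300.3 and 308 CPM in macroH2A1 KD and 150.4, 168 and 173 CPM in Luc KD. The lowest macroH2A1 KD library was well above the highest Luc KD library, and EPAS1 was 1.76-fold higher (log2 fold change 0.82, SE 0.10, edgeR adjusted p = 0.00525). This was the largest change in either direction among the 37 genes tested, and the call held without each library in turn (adjusted p 0.01 to 0.0316). HIF1A, which encodes HIF-1 alpha, had 491, 444 and 454 CPM in macroH2A1 KD and 455, 454 and 446 CPM in Luc KD. Its groups overlapped (log2 fold change 0.04, SE 0.07, edgeR adjusted p = 0.821).

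Per kb of exon, EPAS1 made up 27.1%, 32.3% and 32.3% of the 2 alpha subunits in macroH2A1 KD and 18.9%, 20.7% and 21.5% in Luc KD. HIF1A was the more abundant of the pair, at 89.9 ± 4.79 CPM per kb against 39.6 ± 3.65 for EPAS1 in macroH2A1 KD (SD, n = 3 each). In Luc KD the levels were 87.7 ± 0.996 for HIF1A and 22.4 ± 1.62 CPM per kb for EPAS1. ARNT, the shared partner, had 40.0 to 47.7 CPM in macroH2A1 KD and 38.6 to 40.3 CPM in Luc KD and did not pass (edgeR adjusted p = 0.345).

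Of the 41 genes, EGLN1, VHL, HIF1AN and EGLN3 act on the HIF alpha subunit, and none of them was called. EGLN1, the main oxygen-sensing prolyl hydroxylase and itself a HIF target, had 42.9, 39.4 and 38.3 CPM in macroH2A1 KD and 46.7, 48.5 and 52.6 CPM in Luc KD. These did not overlap (log2 fold change -0.29, SE 0.08, edgeR adjusted p = 0.0831). VHL, the ubiquitin ligase subunit that binds hydroxylated HIF, had 20.8, 18.0 and 21.4 CPM in macroH2A1 KD and 23.7, 27.4 and 23.0 CPM in Luc KD, again without overlap (log2 fold change -0.30, SE 0.11, edgeR adjusted p = 0.163). HIF1AN, an asparaginyl hydroxylase that blocks HIF activity, had overlapping groups (edgeR log2 fold change 0.18, SE 0.15, adjusted p = 0.52). EGLN3, a hydroxylase strongly induced by HIF in many cells, had 0 counts in all 6 libraries. A count of 0 allows up to 3 counts, or 0.467 to 0.802 CPM depending on the library.

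**Figure D3:**
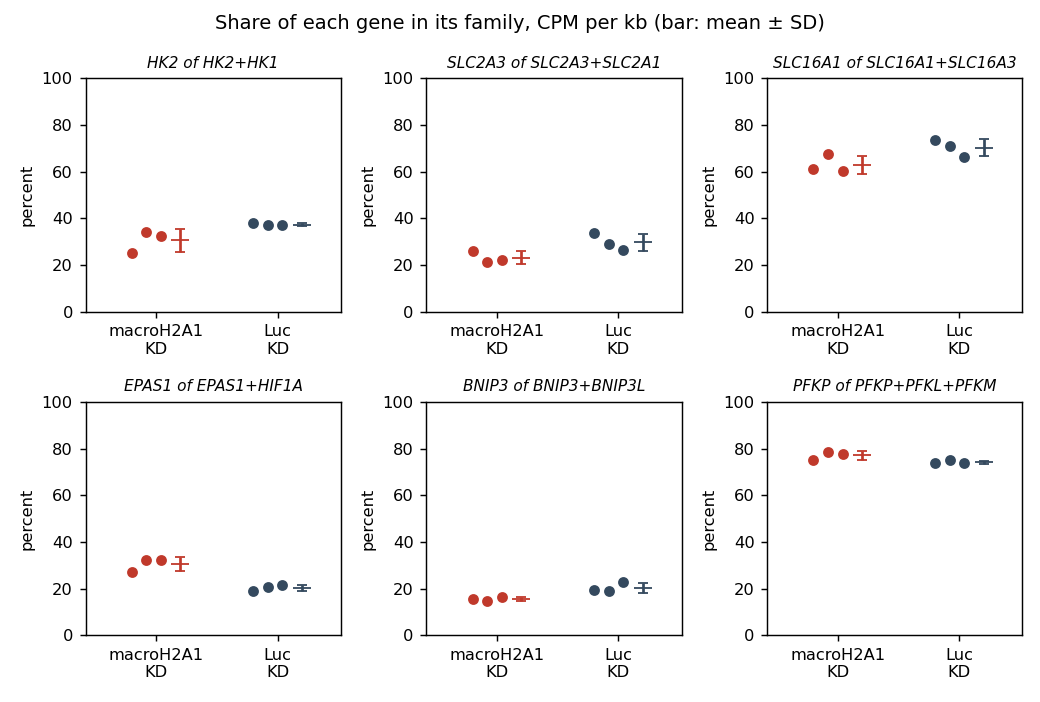
Percent of a family's level per kb of exon held by 1 gene, for 6 families, by library, macroH2A1 KD left of Luc KD, with bars for the mean and SD over 3 libraries. EPAS1 held 30.6% of the alpha subunits in macroH2A1 KD and 20.4% in Luc KD, HK2 30.5% and 37.3% of the hexokinases, and BNIP3 15.6% and 20.5% of its pair.

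The remaining HIF targets went both ways. BNIP3, a mitochondrial protein that promotes mitophagy, had 46.5, 39.1 and 45.3 CPM in macroH2A1 KD and 60.9, 58.3 and 76.1 CPM in Luc KD. It was 1.49-fold lower (log2 fold change -0.58, SE 0.13, edgeR adjusted p = 0.0396), and Luc KD replicate 3 was the highest. Without any 1 of the 6 libraries it was not called, with adjusted p from 0.0639 to 0.109; the lowest of these came without Luc KD replicate 2 and the highest without macroH2A1 KD replicate 2. Its log2 fold change without Luc KD replicate 3 was -0.45. The 7 copies named for BNIP3 held 111 counts in macroH2A1 KD and 113 in Luc KD, against 584 and 928 for the gene. Its relative BNIP3L, which has the same function in mitophagy, did not pass, at 190.3 ± 10.8 CPM in macroH2A1 KD and 203 ± 3.64 CPM in Luc KD (SD, n = 3 each, edgeR adjusted p = 0.474).

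DDIT4 and MXI1 rose. DDIT4 encodes REDD1, an inhibitor of mTORC1 that hypoxia and other stresses induce. It had 97.5, 94.8 and 85.7 CPM in macroH2A1 KD and 67.5, 61.7 and 65.5 CPM in Luc KD, 1.43-fold higher without overlap (log2 fold change 0.51, SE 0.08, edgeR adjusted p = 0.0131). It was not called without Luc KD replicate 2 or 3 (adjusted p = 0.0577 and 0.0504), at log2 fold changes of 0.48 and 0.52. It shares 847 of its 2058 exon bases with DDIT4-AS1 on the other strand. DDIT4-AS1 has no entry in the deposited counts, so its reads were not counted separately. MXI1 encodes an antagonist of MYC. It had 18.2, 21.5 and 20.9 CPM in macroH2A1 KD and 13.0, 12.8 and 15.1 CPM in Luc KD, 1.49-fold higher without overlap (log2 fold change 0.57, SE 0.12, edgeR adjusted p = 0.0388). MXI1 was not called without any 1 of the 6 libraries (adjusted p 0.0552 to 0.124), with DESeq2 (0.0985) or without TMM scaling (0.0614).

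The carbonic anhydrases, which handle acid made by glycolysis, were low. CA12 had 5.54, 8.70 and 7.23 CPM in macroH2A1 KD and 9.81, 13.3 and 14.0 CPM in Luc KD, without overlap. Its log2 fold change of -0.78 was the most negative of the 37 tested and did not pass (SE 0.23, edgeR adjusted p = 0.0919). CA9, a standard hypoxia marker, had 5, 0 and 1 counts in macroH2A1 KD and none in the 3 Luc KD libraries. ANKRD37 had 8, 2 and 6 counts in macroH2A1 KD and 9, 9 and 3 in Luc KD, also too few to test. NDRG1, a stress-induced gene, ADM, which encodes the vasodilator adrenomedullin, and KDM3A, a histone demethylase, had overlapping groups and log2 fold changes of -0.05, -0.07 and 0.16.

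**Figure D4:**
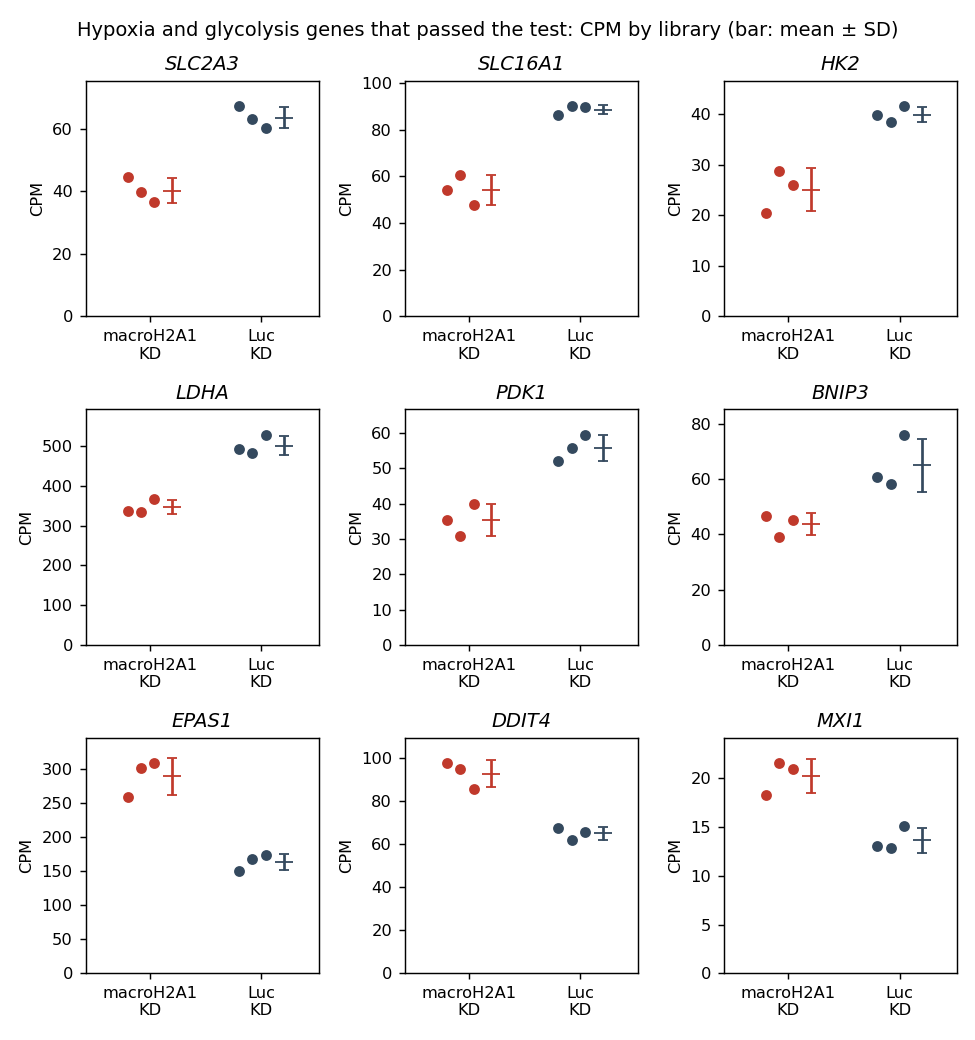
CPM by library for the 9 genes that passed the test, macroH2A1 KD left of Luc KD, with bars for the mean and SD over 3 libraries and each axis starting at 0. In the upper 6 panels every macroH2A1 KD point lies below every Luc KD point (HK2 at 20.4 to 28.7 CPM against 38.4 to 41.5), and in the lower 3 every one lies above (EPAS1 at 258 to 308 CPM against 150.4 to 173).

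Further genes of these pathways were read from 5 lists of 138 matched genes, of which 112 were tested, 15 fell and 2 rose. Most of the calls were in the list of further HIF targets. Of its 34 tested genes 10 fell (29.4%, where 4.31% of all genes tested were lower) and none rose, with a median log2 fold change of -0.23. The list was chosen with earlier results of these data known, so this share is not independent of them. The count was 4 without macroH2A1 KD replicate 1 or Luc KD replicate 1, 5 without any other 1 library, and 6 with scaling by total counts only. PLOD2, a collagen lysyl hydroxylase, averaged 133 ± 11.0 CPM in macroH2A1 KD and 268 ± 8.14 CPM in Luc KD, 2.02-fold lower (SD, n = 3 each, edgeR adjusted p = 0.00144).

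CITED2, which competes with HIF for the coactivators CBP and p300, averaged 86.9 ± 5.96 CPM in macroH2A1 KD and 139 ± 6.14 CPM in Luc KD (SD, n = 3 each, edgeR adjusted p = 0.00489). STC2, a secreted glycoprotein, was 1.44-fold lower and P4HA1, a collagen prolyl hydroxylase, 1.33-fold lower. IGFBP3, which binds insulin-like growth factors, and PPP1R3C, a glycogen-targeting phosphatase subunit, were 1.32-fold and 1.33-fold lower. STC2 was called in 2 of the 6 fits with 1 library left out, PPP1R3C in 1, and P4HA1 and IGFBP3 in none (adjusted p 0.0409 to 0.0715, 0.045 to 0.11, 0.0536 to 0.0844 and 0.0728 to 0.105). HIGD1A and LOX, outside the 8 genes of lowest p, also fell and were called in 1 and in none of these fits. VEGFA, the best known HIF target, did not pass, at 79.1 ± 6.23 CPM in macroH2A1 KD and 71.8 ± 7.69 CPM in Luc KD (SD, n = 3 each, edgeR adjusted p = 0.465).

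The other lists held few calls, and 4.31% of all genes tested were lower and 3.90% higher. Of 18 tested further glycolysis genes, MPC2, a subunit of the mitochondrial pyruvate carrier, was 1.51-fold lower and SLC2A12, which encodes the glucose transporter GLUT12, 1.72-fold higher (edgeR adjusted p = 0.0174 and 0.0228), which is 5.56% of the list in each direction and near those shares. LDHB, the lactate dehydrogenase subunit that favours pyruvate, did not pass. Of 26 genes of pyruvate dehydrogenase and the tricarboxylic acid cycle, IDH3A, an isocitrate dehydrogenase subunit, was 1.45-fold lower and PC, pyruvate carboxylase, 1.73-fold higher. That list had 3.85% called in each direction, also near them, and a median log2 fold change of -0.0057. Of 18 tested genes of the pentose phosphate pathway and glycogen, the glycogen enzymes GYS1 and GBE1 were 1.39-fold and 1.45-fold lower (11.1% of the list); GBE1 is also in the list of further HIF targets. Of 18 tested genes of the HIF machinery, the chaperones HSP90AA1 and HSP90AB1, which stabilise HIF alpha subunits, were 1.53-fold and 1.31-fold lower (11.1% of the list). Of these 8 genes, GBE1 and HSP90AA1 kept their call without each library in turn. MPC2 was called in 2 of the 6 such fits, SLC2A12 and GYS1 in 1, and PC, IDH3A and HSP90AB1 in none, with adjusted p up to 0.0669, 0.078, 0.107, 0.0737, 0.116 and 0.0831.

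**Figure D5:**
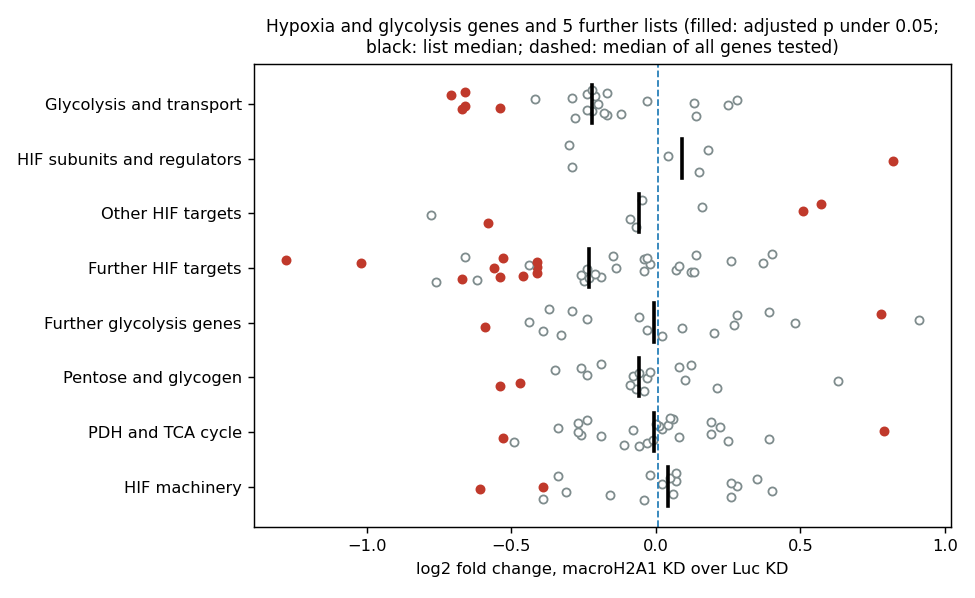
Log2 fold change, macroH2A1 KD over Luc KD, for each tested gene of the 3 role groups and of 5 further lists, filled where the adjusted p was under 0.05, with black bars for list medians and a dashed line for all genes tested. The further HIF targets and the glycolysis group have medians of -0.23 and -0.22, and the other lists lie nearer 0.

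The authors' deposited table, made with DESeq per the submitters' processing notes, holds 39 of the 41 genes. Of these, 11 have a negative and 4 a positive log2 ratio at an adjusted p under 0.05 in the authors' deposited table, where 6.57% and 5.46% of all rows of that table do. Beside the 9 genes called here, the authors' deposited table gives ALDOA, GAPDH, PGK1, PKM and CA12 as lower and PFKP as higher. The log2 ratios of these in the authors' deposited table are -0.27, -0.17, -0.28, -0.20, -0.78 and 0.29. With edgeR limited to the genes of the authors' deposited table, 13 fell and 4 rose. In that fit 1046 of all 11638 genes tested fell and 1014 rose, more than in the main fit. ENO1 and EGLN1 were also among the 13 that fell, each at edgeR adjusted p = 0.0495.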

How the data were processed

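RNA from 6 libraries of IMR90 cells, 3 macroH2A1 KD and 3 Luc KD, was depleted of ribosomal RNA and made into libraries with a dUTP second strand, all run in 1 lane, per the labels' protocols. The deposited files hold raw counts per Ensembl gene, made with CASAVA 1.7, GSNAP (version given as a date) and HTSeq on hg19 per the submitters' processing notes; no source used here gives the annotation or the strand setting. Lines that name no gene were left out: 64.4% to 68.8% of listed reads had no unique alignment and 11.9% to 13.7% were assigned to genes. The authors' deposited table, for which the submitters' processing notes name DESeq 1.10.1, holds per the file headers a mean signal (normalized count), a fold ratio, its log2 and a p-value. Its log2 ratios lie within 0.039 of macroH2A1 KD over Luc KD as computed here, which fixes their direction.

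Genes were filtered with filterByExpr (minimum count 10), scaled with TMM and tested with edgeR 4.0.16 quasi-likelihood tests in R 4.3.3, with group as the only term. The SE is the log2 fold change divided by the square root of F, in size. CPM are counts per 1000000 of TMM-scaled library size, per kb of GENCODE 29 exon union where genes are compared. DESeq2 1.42.0 and limma 3.58.1 were among 18 alternatives. Steps were tested on simulated data. Replicate libraries differed beyond counting error (chi-square 25.2 to 37.7 per degree of freedom). Symbols came from gene tables by Ensembl identifier; 1 of 222 list entries was unmatched. Coordinates are given only for RefSeq windows, whose build is not that of the counts.

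The genes, lists and tests were chosen with earlier results of these data known. Named were all 41 genes, and from each further list the called genes, at most 8 by lowest p, except 1 that is counted but not reported here; LDHB, VEGFA, PGAM4, HIGD1A and LOX were added after their values were seen. P-values measure the spread between these libraries.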

Additional observations from a re-analysis of the deposited data

How the results depend on the processing

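All 9 called genes kept their direction in the 18 alternatives, and EPAS1 and SLC16A1 also their call in each; 19 of 23 glycolysis genes had a negative fold change under every scaling tried, 18 without macroH2A1 KD replicate 1 or 2. Testing only the 11638 genes of the authors' table gave 2060 calls, in place of 1104 among 13445 genes. Of the 2060 calls 1046 were lower, and 13 of the 41 genes were lower. At an adjusted p under 0.01 there were 317 calls, 1 of the 41 lower and 1 higher, and under 0.1 there were 1881, 10 and 5. Leaving out 1 library gave 427 to 564 calls, 3 to 5 of the 41 lower and 1 to 2 higher, and 3 lower with 1 higher came without Luc KD replicate 2 or 3; such fits have fewer samples. The labels state no culture or day shared by libraries of the same replicate number. Deviations of same-numbered libraries from their group means correlated at -0.025, -0.018 and -0.173, and no library correlated best with its own number. With 3 libraries per group, such correlations cannot settle whether the samples were paired. With the replicate block there were 416 calls, 4 of the 41 lower and 1 higher (EPAS1), since HK2, BNIP3, DDIT4 and MXI1 did not pass, and 4 of the further HIF targets lower in place of 10. Of the uncalled genes 5 changed sign when 1 library was left out, with log2 fold changes from -0.06 to 0.0080 for PFKM, -0.41 to 0.02 for PFKFB4, -0.0005 to 0.07 for HIF1A, -0.15 to 0.03 for NDRG1 and -0.14 to 0.06 for ADM. Depth limits CA9, PDK3, ANKRD37 and EGLN3, which were too low to test.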
